A study of Mus musculus with 18 samples.

Results

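The RNA levels of 8 mouse genes of the complement system were examined in 18 libraries. The 8 genes are C1s1, C1ra, C2, C4b, C3, Cfb, Serping1 and Cd55, the complement components and regulators other than C1q that were picked for this description. Each symbol matched 1 protein-coding gene of the count table, so 8 of its 54752 genes are described here. The libraries fall into 6 groups of 3. Cultured ID8 cells and cultured HM-1 cells, both mouse ovarian cancer lines, were each sequenced as cells labelled Cd276KO and as their controls. HM-1 cells labelled Cd276KO and their controls were also grown as intradermal tumors in B6C3F1 mice and taken on day 10. Cd276 encodes B7-H3, an immune checkpoint molecule on the cell surface, and the comparisons ask what changes when tumor cells lose it. The mice themselves carry no stated deletion, so the labelled genotype is that of the inoculated cells, while a tumor also holds RNA of the host. The sources used here do not say how the knockout was made, whether a line is 1 clone, what the control cells received, or how many mice the tumors came from. Per the labels the 3 libraries of each group are biological replicates, without saying what was independent about them, and p-values measure the spread between these libraries.

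Complement is a cascade of plasma proteins that marks and damages cells. In the classical pathway C1q binds a target and activates the proteases C1r and C1s, which cut C4 and C2 into the enzyme that cleaves C3. The alternative pathway builds a second C3-cleaving enzyme from C3 itself and factor B, the product of Cfb. Regulators keep this in check: Serping1 encodes the C1 inhibitor, which blocks C1r and C1s, and Cd55 encodes decay-accelerating factor, a membrane protein that takes C3-cleaving enzymes apart on a cell's own surface. The liver makes most plasma complement, and fibroblasts, macrophages and tumor cells can make components locally.

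Total counts were 17349082 to 30959773 per library, and levels are given as counts per 1000000 of that total (CPM). Cd276 itself averaged 19.4 ± 1.45 CPM in ID8 cells labelled Cd276KO and 20.9 ± 0.299 CPM in ID8 controls (SD, n = 3 each), so its RNA did not separate these groups. It averaged 46.6 ± 1.53 CPM in HM-1 cells labelled Cd276KO and 86.4 ± 10.6 CPM in HM-1 controls, and 86.6 ± 12.3 CPM in tumors labelled Cd276KO and 122 ± 18.1 CPM in control tumors, where the difference was not called (edgeR adjusted p = 0.105). A knockout can leave RNA in place, and gene counts do not show the protein or the edited site, so all groups are called by their labels. The epithelial keratin Krt8 was high in all 4 culture groups, at group means of 835 to 2574 CPM, while Epcam was at 0 counts in HM-1 cultures. HM-1 control library 1 stood apart from the other 2 of its group, and control tumor 3 from the other 2 control tumors, so some results are also given without them.

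C1s1 (ENSMUSG00000038521.17) spans bases 124530345 to 124542359 of chromosome 6 (GRCm38, minus strand), and C1ra (ENSMUSG00000055172.10) lies beside it from 124512405 to 124523443 on the plus strand. C4b (ENSMUSG00000073418.4), Cfb (ENSMUSG00000090231.10) and C2 (ENSMUSG00000024371.14) lie in one stretch of chromosome 17 on the minus strand, from 34728380 to 34743882, from 34856374 to 34862518 and from 34862604 to 34898265. C3 (ENSMUSG00000024164.15) lies further along, from 57203970 to 57228136 on the minus strand. Serping1 (ENSMUSG00000023224.12) spans bases 84765387 to 84775444 of chromosome 2 and Cd55 (ENSMUSG00000026399.12) bases 130439027 to 130462744 of chromosome 1, both on the minus strand. In the annotation a read-through gene, Gm20547, covers 79.5% of the exonic bases of Cfb and 42.8% of those of C2 on the same strand and has 0 counts in all 18 libraries. How the authors assigned such shared reads is not given in the sources used here, so the levels of Cfb and C2 may be understated in every library. C1s1, C1ra, C4b and Cd55 have near-identical copies (C1s2, C1rb, C4a and Cd55b) that could share reads with them.

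The 250 bases before the transcription start are shown for C1s1, C3 and Cd55. For these 3 members alone an available RefSeq promoter began at the start of the annotated gene. Of the members tested in ID8 cells they also had the widest changes there, where C1s1 and C3 fell and Cd55 rose. The sequences are RefSeq promoters of GRCm38.p6, read 5′ to 3′ on the minus strand, at chr6:124542360-124542609, chr17:57228137-57228386 and chr1:130462745-130462994. Capitals mark matches to 2 of 5 motifs searched on both strands, the C/EBP motif TTGCNNAA and the GC box CCGCCC.
C1s1: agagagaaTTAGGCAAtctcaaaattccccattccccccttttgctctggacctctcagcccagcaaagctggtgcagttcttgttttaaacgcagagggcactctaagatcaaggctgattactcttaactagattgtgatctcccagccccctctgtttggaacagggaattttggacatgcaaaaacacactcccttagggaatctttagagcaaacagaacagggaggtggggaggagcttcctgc
C3: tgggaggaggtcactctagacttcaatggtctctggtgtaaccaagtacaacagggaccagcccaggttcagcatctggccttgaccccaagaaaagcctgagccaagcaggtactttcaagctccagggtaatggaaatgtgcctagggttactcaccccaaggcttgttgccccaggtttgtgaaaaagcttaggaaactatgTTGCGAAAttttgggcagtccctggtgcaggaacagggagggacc
Cd55: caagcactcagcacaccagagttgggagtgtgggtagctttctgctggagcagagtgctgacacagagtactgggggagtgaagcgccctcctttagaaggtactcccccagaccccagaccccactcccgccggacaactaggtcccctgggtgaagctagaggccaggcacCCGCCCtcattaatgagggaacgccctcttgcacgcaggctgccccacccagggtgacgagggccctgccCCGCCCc
C3 holds the C/EBP letters on its own strand, from base -45 to base -38 before the start. C1s1 holds them on the opposite strand, from base -242 to base -235. Cd55 holds 2 GC boxes, from base -77 to base -72 and from base -7 to base -2, and no C/EBP letters. Of 32851 mouse promoters of the same length, 9.56% hold the C/EBP letters and 32.7% the GC box. The STAT motif TTCNNNGAA, the interferon-stimulated response element and the NF-kB motif, which 7.02%, 2.98% and 3.9% of those promoters hold, have no match in these 3 windows. The matches describe letters only and were searched with the expression values known.

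The 8 genes fell into distinct patterns over the 6 groups. C1s1, C1ra, C3 and Cd55 were highest in ID8 cultures, with C1s1 and C3 highest in ID8 controls and Cd55 highest in ID8 cells labelled Cd276KO. C2, C4b, Cfb and Serping1 were highest in tumors. No member was highest in HM-1 cultures, where group means ran from 0 CPM for Cd55 to 5.97 CPM for C1ra. Per kilobase of exon, which allows genes to be compared, C1s1 (94.6 ± 5.56 CPM per kb) and C3 (64.3 ± 3.70) stood above C1ra (15.2 ± 0.416) and Cd55 (10.8 ± 0.633) in ID8 controls. In ID8 cells labelled Cd276KO the order was Cd55 (26.0 ± 2.09 CPM per kb), C3 (16.1 ± 0.667) and C1s1 (15.9 ± 0.591), with C3 and C1s1 closer than their spread, then C1ra (9.10 ± 0.515).

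**Figure D1:**
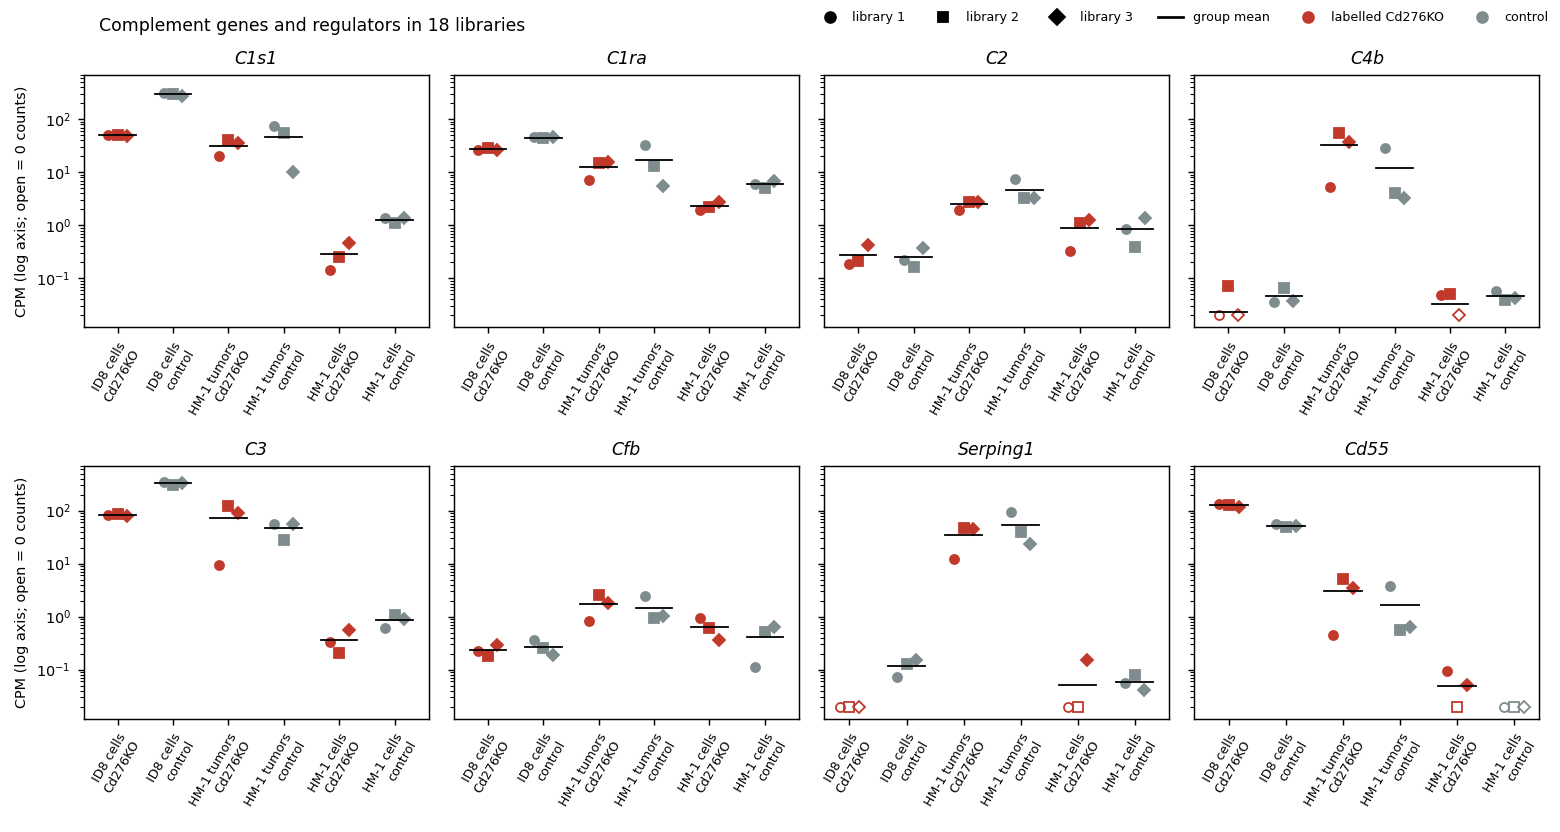
CPM of each of the 8 genes in each library (log axis), with red for groups labelled Cd276KO, grey for controls, symbols for libraries 1 to 3, a line for the group mean and open symbols for 0 counts. C1s1 and C3 reach 278 to 344 CPM in ID8 controls, Serping1 and C4b are near 0 in all cultures and high in tumors, and the 3 tumors of a group scatter more widely than the 3 cultures.

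In ID8 cells, which descend from epithelial cells of the mouse ovary's surface, 4 of the 8 genes had enough reads to test and all 4 differed between cells labelled Cd276KO and controls. C1s1, C3 and C1ra fell and Cd55 rose. In this comparison 60.7% of 12932 genes tested were called (adjusted p under 0.05), 31.3% lower and 29.4% higher, so a call by itself is common and the sizes carry the description.

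C1s1, which encodes the protease C1s, was at 50.6, 51.3 and 47.8 CPM in ID8 libraries labelled Cd276KO, against 313, 296 and 278 CPM in ID8 controls. The groups were far apart and each was tight, with the highest library within 1.13 times the lowest in the controls. The log2 fold change was -2.49 (SE 0.06, edgeR adjusted p = 1.81e-19).

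C1ra, the gene beside it, encodes C1r, the protease that activates C1s. It was at 26.5, 28.9 and 26.0 CPM in ID8 libraries labelled Cd276KO, against 45.7, 44.0 and 46.4 CPM in ID8 controls. The groups did not overlap, and the log2 fold change of -0.66 (SE 0.07, edgeR adjusted p = 2.24e-08) was smaller than that of C1s1. This call was lost when 1 spread was estimated over all 18 libraries, with a log2 fold change of -0.66 and an edgeR adjusted p of 0.243.

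C3, the central component that all pathways cleave, was at 81.2, 86.7 and 80.5 CPM in ID8 libraries labelled Cd276KO. ID8 controls had 344, 309 and 339 CPM, so every control library was above every library labelled Cd276KO. The log2 fold change was -1.92 (SE 0.06, edgeR adjusted p = 1.95e-17).

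Cd55 went the other way. It was at 134, 130 and 115 CPM in ID8 libraries labelled Cd276KO, against 55.8, 50.0004 and 51.1 CPM in ID8 controls, a log2 fold change of 1.35 (SE 0.07, edgeR adjusted p = 4.65e-14). Its near-identical copy Cd55b had 0 counts in both ID8 groups, and the antisense gene Gm16083, which shares 2.1% of the exonic bases of Cd55, had 1 count in all 18 libraries.

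The other 4 members had few or no reads in ID8 cells and were below the filter on low counts. Those of C2 and Cfb may be understated because of shared exonic bases, as given above. C2, the second component that C1s cuts, had 5, 6 and 10 reads in libraries labelled Cd276KO and 6, 5 and 10 reads in controls. Cfb had 6, 5 and 7 reads in libraries labelled Cd276KO and 10, 8 and 5 in controls, and C4b had 2 reads over the 3 libraries labelled Cd276KO and 4 over the 3 controls. Serping1, the inhibitor of C1r and C1s, had 0 reads in the 3 libraries labelled Cd276KO and 10 over the 3 controls, which is at least 3.09-fold lower when 3 reads over the group are taken as the floor. ID8 cells thus held RNA of C1s1, C1ra, C3 and Cd55 with few or no reads of C4b, C2 and Serping1.

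Among 47 other complement genes listed beside the members, 12 could be tested in ID8 cells. Of these, 10 were lower in cells labelled Cd276KO, and C4a and Cr1l were not called. With the 4 members, 13 of 16 tested genes (81.2%) were lower and Cd55 alone was higher, against 31.3% lower and 29.4% higher over all genes tested. The median log2 fold change of the 16 was -1.33, against -0.01 over all genes tested. The list was drawn up with results of these data known, so these shares only describe it.

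Named examples of these falls cover the lectin pathway, a membrane regulator and a protease copy. Masp1 averaged 0.544 ± 0.0710 CPM in ID8 cells labelled Cd276KO and 6.74 ± 0.594 CPM in ID8 controls (SD, n = 3 each), a log2 fold change of -3.53 (SE 0.19, edgeR adjusted p = 2.71e-13). Thbd, thrombomodulin, a membrane protein best known for curbing clotting, averaged 4.23 ± 0.350 CPM in cells labelled Cd276KO and 35.2 ± 1.87 CPM in controls (log2 fold change -2.98, SE 0.10, edgeR adjusted p = 1.56e-17). C1s2, the near-identical copy of C1s1, averaged 0.970 ± 0.191 CPM in cells labelled Cd276KO and 3.20 ± 0.209 CPM in controls (log2 fold change -1.63, SE 0.21, edgeR adjusted p = 4.22e-07). C1s2 and C1s1 could share reads, as given above, so the fall of C1s2 may not be separate from that of C1s1.

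Summed macrophage and fibroblast markers were lower in the same ID8 libraries labelled Cd276KO, and their part in the complement values was not tested. The sum of 8 macrophage markers was 4.15 to 6.12 CPM in ID8 libraries labelled Cd276KO and 10.1 to 11.5 CPM in ID8 controls, with Adgre1, Ms4a7 and Lyz2 at 0 in both groups. The sum of 8 fibroblast markers was 373 to 388 CPM in libraries labelled Cd276KO and 506 to 569 CPM in controls, with Lum and Fap at 0 in both. Single fibroblast markers went opposite ways. Dcn was called higher (log2 fold change 1.23, edgeR adjusted p = 6.25e-15), while Col1a1, Col1a2, Col3a1 and Pdgfra were called lower.

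By role, 5 of 6 tested genes of the classical and lectin pathway were lower, with C4a not called. In the group of C3 and the alternative pathway C3 and Cfp were lower, and Cfp encodes properdin, which stabilises the alternative C3-cleaving enzyme. Clu, a soluble regulator, was lower (log2 fold change -0.99, SE 0.06, edgeR adjusted p = 3.00e-12). Of 4 tested membrane regulators Cd59a and Thbd were lower, Cd55 was higher and Cr1l was not called. Cd59a had 4 reads over the ID8 libraries labelled Cd276KO, so it passed the filter on low counts only through the controls. Cr1l encodes the rodent membrane regulator Crry, and it averaged 50.2 ± 1.71 CPM in ID8 cells labelled Cd276KO and 50.5 ± 4.22 CPM in ID8 controls (log2 fold change 0.07, SE 0.07, edgeR adjusted p = 0.398). Cfp, Clu, Cd59a and Cr1l are named here after their values were seen.

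**Figure D2:**
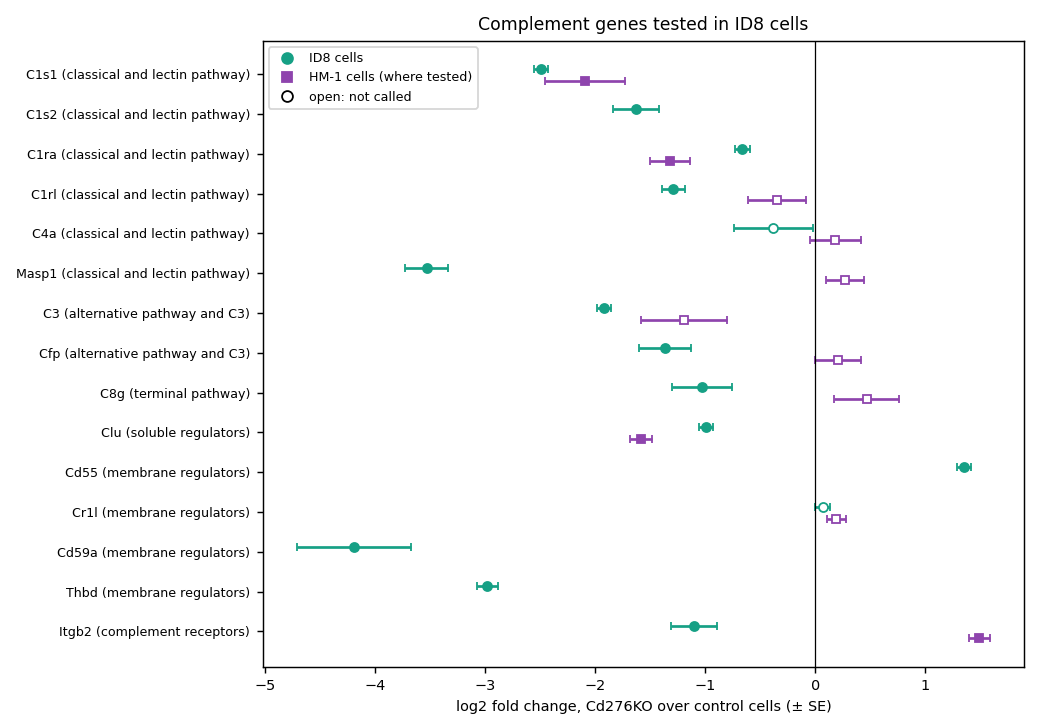
Log2 fold change of cells labelled Cd276KO over controls (± SE) for complement genes tested in ID8 cells (circles), with HM-1 cells (squares) where tested; open symbols were not called. In ID8 cells all filled points but Cd55 lie left of 0, Cd55 lies at 1.35, and C4a and Cr1l are open.

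In HM-1 cells, where C1s1, C3 and Cd55 were far below their levels in ID8 cells, 5 members could be tested. C1s1 and C1ra were lower in cells labelled Cd276KO than in controls, and C2, C3 and Cfb were not called. Over all 12457 genes tested 27.7% were called, 16.1% lower and 11.6% higher. These were 3452 genes, and 7491 were called without HM-1 control library 1 and 1725 without library 3 labelled Cd276KO. The sum of 8 macrophage markers was 4.15 to 4.80 CPM in HM-1 libraries labelled Cd276KO and 7.37 to 8.75 CPM in HM-1 controls, with Fcgr1 at 0 in the libraries labelled Cd276KO and Ms4a7 at 0 in the controls. That of 8 fibroblast markers was 168 to 173 CPM in libraries labelled Cd276KO and 125 to 170 CPM in controls, with Dpt at 0 in both groups and Fap at 0 in controls, and the part of these markers was not tested. Within the fibroblast list Col1a1 and Pdgfra were called lower in HM-1 cells labelled Cd276KO (log2 fold changes -1.06 and -4.30), and Col3a1 was not called.

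C1ra was at 1.96, 2.20 and 2.78 CPM in HM-1 libraries labelled Cd276KO, against 6.01, 5.13 and 6.76 CPM in HM-1 controls. The groups did not overlap (log2 fold change -1.32, SE 0.18, edgeR adjusted p = 0.00285). C1s1 was at 0.143, 0.256 and 0.464 CPM in libraries labelled Cd276KO, which is 3, 5 and 9 reads, against 1.36, 1.10 and 1.35 CPM, or 24, 28 and 32 reads, in controls. Its log2 fold change was -2.09 (SE 0.36, edgeR adjusted p = 0.00700). With so few reads in libraries labelled Cd276KO, C1s1 passed the filter on low counts only through the controls. A fall was thus the direction built into its test. With 1 spread over all 18 libraries both calls were lost, at an edgeR adjusted p of 0.140 for C1s1 and 0.0503 for C1ra, with log2 fold changes of -2.10 and -1.33.

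C3 was at 0.334, 0.205 and 0.567 CPM in HM-1 libraries labelled Cd276KO and at 0.624, 1.06 and 0.887 CPM in HM-1 controls. The ranges did not overlap, and the log2 fold change of -1.19 (SE 0.39) did not pass the test (edgeR adjusted p = 0.0601). C3 also needed the controls to pass the filter on low counts. Without HM-1 control library 1 it was -1.35 and passed (edgeR adjusted p = 0.00274), and it also passed with no filter on low counts (edgeR adjusted p = 0.0388).

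C2 was at 0.334, 1.13 and 1.24 CPM in HM-1 libraries labelled Cd276KO and at 0.851, 0.394 and 1.35 CPM in controls, with overlapping groups and a log2 fold change of 0.09 (SE 0.58, edgeR adjusted p = 0.918). Cfb was at 0.955, 0.615 and 0.361 CPM in libraries labelled Cd276KO and at 0.113, 0.513 and 0.634 CPM in controls (log2 fold change 0.59, SE 0.54, edgeR adjusted p = 0.452). C4b had 2 reads over the 3 libraries labelled Cd276KO and 3 over the controls, Serping1 had 3 reads in libraries labelled Cd276KO and 4 in controls, and Cd55 had 3 reads in libraries labelled Cd276KO and 0 in controls, so none of these 3 genes was tested. Cd55, the member that was higher in ID8 cells labelled Cd276KO, was thus hardly detected in HM-1 cultures.

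Of the other 47 complement genes, 10 could be tested in HM-1 cells: 1 was higher, 3 were lower and 6 were not called, with a median log2 fold change of 0.19 against -0.01 over all genes tested. Itgb2, the common chain of complement receptors 3 and 4, averaged 255 ± 0.594 CPM in HM-1 cells labelled Cd276KO and 93.7 ± 11.3 CPM in HM-1 controls (SD, n = 3 each; log2 fold change 1.49, SE 0.10, edgeR adjusted p = 0.000129). The partner chains of these receptors were hardly detected. Itgam had 5 reads over the libraries labelled Cd276KO and 0 over controls, and Itgax had 2 and 0. Clu, which encodes clusterin, a secreted inhibitor of the terminal pathway, averaged 25.3 ± 1.29 CPM in cells labelled Cd276KO and 78.2 ± 6.398 CPM in controls (log2 fold change -1.58, SE 0.10, edgeR adjusted p = 0.000109). Fcna, ficolin A, a recognition protein of the lectin pathway, averaged 0.922 ± 0.186 CPM in cells labelled Cd276KO and 1.90 ± 0.517 CPM in controls (log2 fold change -0.999, SE 0.29, edgeR adjusted p = 0.0415). This call was lost without HM-1 control library 2 (-0.85, edgeR adjusted p = 0.113) and without any 1 of the libraries labelled Cd276KO (edgeR adjusted p of 0.0783 to 0.145). The Fcna call was also lost with 1 spread over all 18 libraries (edgeR adjusted p = 0.0624) and with the replicate number as a block (edgeR adjusted p = 0.0559). The third lower gene was C5ar2, a receptor for the C5a fragment, named after its values were seen.

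The difference between the 2 knockout effects was tested directly for the members. The effect in ID8 cells minus the effect in HM-1 cells was called for 1 of 6 tested members, C1ra, against 40.4% of 14208 genes tested, 19.8% above 0 and 20.7% below 0. C1ra fell less in ID8 cells than in HM-1 cells, by a difference of 0.65 on the log2 scale (SE 0.18, edgeR adjusted p = 0.0113), and this call was lost with 1 spread over all 18 libraries (edgeR adjusted p = 0.465). For C1s1 the difference was -0.41 (SE 0.35, edgeR adjusted p = 0.445) and for C3 -0.72 (SE 0.35, edgeR adjusted p = 0.123). Neither was called, and without HM-1 library 3 labelled Cd276KO the difference for C1s1 was 0.10. The differences for C2 (0.08, SE 0.83) and Cfb (-0.75, SE 0.73) were not called either, and that for Cd55 rests on 3 reads in HM-1 cultures and is not interpretable.

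**Figure D3:**
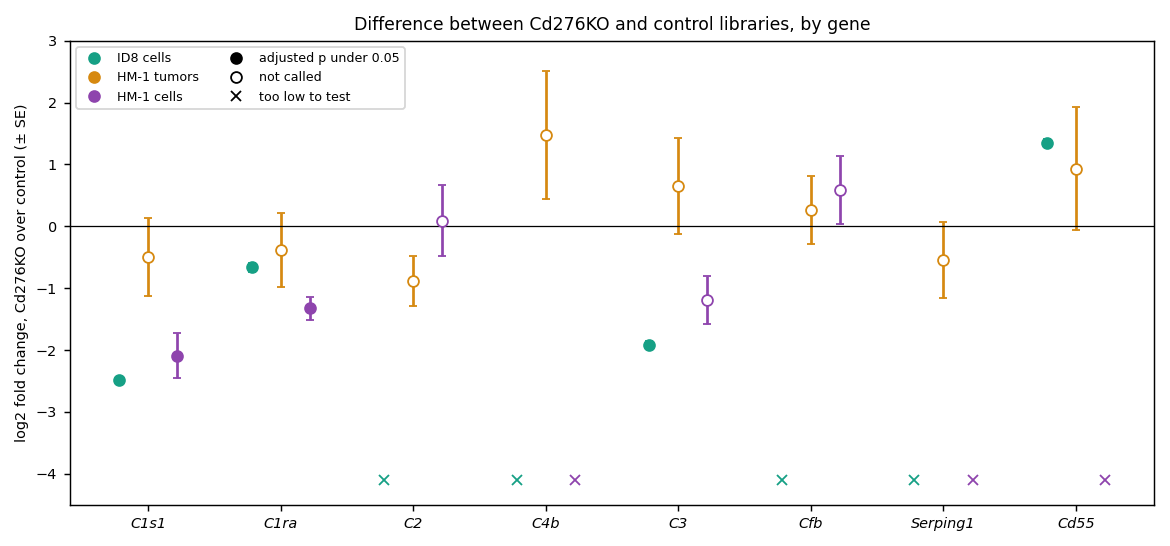
Log2 fold change of libraries labelled Cd276KO over controls (± SE) for each of the 8 genes in ID8 cells, HM-1 tumors and HM-1 cells; filled points passed the test and crosses mark genes too low to test. C1s1 and C1ra are filled and below 0 in both lines, C3 is filled only in ID8 cells, Cd55 is filled above 0 in ID8 cells, and all 8 tumor points are open. In HM-1 cells C1s1 passed the filter on low counts only through the controls.

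HM-1 tumors held much more complement RNA than HM-1 cultures. Tumors labelled Cd276KO exceeded cultures labelled Cd276KO in 7 of 7 tested members, where 41.2% of 14330 genes tested were called higher and 34.5% lower, 75.7% in all. Control tumors exceeded control cultures in 6 of 8 members, with C1ra and Cfb not called, where 25.3% of 14609 genes were called higher and 16.6% lower, 41.8% in all. The median log2 fold change of the members was 6.65 for the groups labelled Cd276KO and 5.34 for the controls (5.18 with Cd55 at its counting bound), against 0.08 and 0.05 over all genes tested. C4b, Serping1 and Cd55 had at most 4 reads over an HM-1 culture group. Where tested, they could pass the filter on low counts only through the tumors, so their direction was fixed before the test. In cultures labelled Cd276KO, C1s1 (3, 5 and 9 reads) and C3 (7, 4 and 11 reads) also needed the tumors to pass the filter. Their higher level in tumors labelled Cd276KO was thus built into that comparison. The counts and medians of the members therefore only describe them. Tumors are mixtures of tumor and host cells, and in such bulk samples more cells of a type and more RNA per cell cannot be told apart.

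The widest gaps were in genes that the cultures hardly expressed. Serping1 was at 12.4, 47.3 and 45.9 CPM in tumors labelled Cd276KO, against 0, 0 and 0.155 CPM in cultures labelled Cd276KO. It was at 95.1, 39.8 and 23.5 CPM in control tumors, against 0.0567, 0.0789 and 0.0422 CPM in control cultures (log2 fold change 9.52, SE 0.80, edgeR adjusted p = 0.000347). With 3 reads in the cultures labelled Cd276KO, the ratio there was 722 with a 95% exact interval of 247 to 3506, which covers counting error only. C4b, which encodes the C4 that C1s cuts, was at 5.29, 56.1 and 36.8 CPM in tumors labelled Cd276KO and had 2 reads over the cultures labelled Cd276KO, a ratio of 1044 (interval 289 to 8625). In control tumors C4b was at 28.7, 4.13 and 3.28 CPM, against 3 reads over the control cultures, a ratio of 293 (interval 100 to 1425).

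C3 was at 9.57, 121 and 91.4 CPM in tumors labelled Cd276KO, against 0.334, 0.205 and 0.567 CPM in cultures labelled Cd276KO (log2 fold change 7.48, SE 1.48, edgeR adjusted p = 0.00685). Control tumors had 57.1, 28.1 and 56.1 CPM of C3, against 0.624, 1.06 and 0.887 CPM in control cultures (log2 fold change 5.62, SE 0.38, edgeR adjusted p = 0.000177). In both pairs every tumor was above every culture.

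C1s1 was at 20.4, 40.5 and 35.1 CPM in tumors labelled Cd276KO, and its log2 fold change over cultures labelled Cd276KO was 6.65 (SE 0.38, edgeR adjusted p = 2.48e-06). In control tumors it was at 75.7, 55.4 and 10.1 CPM, with a log2 fold change of 5.06 over control cultures (SE 0.74, edgeR adjusted p = 0.00225). C1ra, which HM-1 cultures already expressed, rose less. It was at 7.18, 15.2 and 15.7 CPM in tumors labelled Cd276KO, a log2 fold change of 2.32 over cultures labelled Cd276KO (SE 0.29, edgeR adjusted p = 0.000107). Control tumors had 32.7, 13.2 and 5.58 CPM of C1ra, and control tumor 3 lay inside the range of the control cultures. The log2 fold change of 1.38 over control cultures was not called (SE 0.57, edgeR adjusted p = 0.0936), and without control tumor 3 it was 1.77 and passed (edgeR adjusted p = 0.00985).

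C2 was at 1.95, 2.77 and 2.77 CPM in tumors labelled Cd276KO (log2 fold change 1.34 over cultures labelled Cd276KO, SE 0.41, edgeR adjusted p = 0.0144). It was at 7.65, 3.24 and 3.34 CPM in control tumors (log2 fold change 2.31 over control cultures, SE 0.57, edgeR adjusted p = 0.0159). The first of these calls was lost without tumor 3 labelled Cd276KO (1.27, edgeR adjusted p = 0.0585). The second was lost without HM-1 control library 1 (2.31, edgeR adjusted p = 0.0582) or library 2 (1.92, edgeR adjusted p = 0.0515).

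Cfb was at 0.835, 2.597 and 1.79 CPM in tumors labelled Cd276KO, a log2 fold change of 1.29 over cultures labelled Cd276KO (SE 0.46, edgeR adjusted p = 0.0302). This call was lost without library 2 or 3 of either group, at edgeR adjusted p-values of 0.108 and 0.119 for the cultures and 0.104 and 0.0816 for the tumors. In control tumors Cfb was at 2.47, 0.938 and 1.04 CPM (log2 fold change 1.65 over control cultures, SE 0.63, edgeR adjusted p = 0.0715). Cd55 was at 0.445, 5.24 and 3.52 CPM in tumors labelled Cd276KO, 65.2 times the 3 reads of the cultures labelled Cd276KO (interval 21.96 to 319). It was at 3.72, 0.563 and 0.626 CPM in control tumors and 0 in control cultures, at least 39.5-fold higher with the same floor.

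Other complement genes were also higher in tumors. C1qa, a chain of the recognition protein C1q that macrophages make, averaged 131 ± 28.4 CPM in tumors labelled Cd276KO and 206 ± 60.3 CPM in control tumors (SD, n = 3 each), and it had 0 counts in all HM-1 cultures, so it was at least 2672-fold higher in tumors than in cultures labelled Cd276KO and at least 4683-fold higher in control tumors than in control cultures. Of 25 other complement genes tested between tumors and cultures labelled Cd276KO, 20 were higher and 2, Cr1l and Itgb2, were lower. Of 26 tested between control tumors and control cultures, 18 were higher and the other 8 were not called. Genes with 0 or few reads in cultures, such as C1qa, passed the filter on low counts only through the tumors, so these counts only describe the list. Colec12, a scavenger receptor with a collectin domain, averaged 39.4 ± 32.7 CPM in control tumors and had 0 counts in control cultures, at least 937-fold higher.

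Between tumors labelled Cd276KO and control tumors none of the 8 members was called, against 5.38% of 15345 genes tested, 2.2% higher and 3.18% lower. These were 826 genes, and 1685 were called without control tumor 3 and 0 without tumor 2 or 3 labelled Cd276KO. None of the 8 passed at an unadjusted p under 0.05 in edgeR either, and DESeq2 called 0. The log2 fold changes ran from -0.88 for C2 (SE 0.41, edgeR adjusted p = 0.235) to 1.48 for C4b (SE 1.04, edgeR adjusted p = 0.426). The others were -0.55 (SE 0.62) for Serping1, -0.50 (SE 0.63) for C1s1, -0.38 (SE 0.60) for C1ra, 0.26 (SE 0.54) for Cfb, 0.66 (SE 0.77) for C3 and 0.93 (SE 1.00) for Cd55. With SEs of 0.41 to 1.04, modest differences in these genes were not detectable with 3 tumors a group.

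C2 was the member whose tumor groups did not overlap, with all 3 tumors labelled Cd276KO (1.95 to 2.77 CPM) below all 3 control tumors (3.24 to 7.65 CPM). For the other 7 the groups overlapped. The spread within a group was wide: C3 varied 12.7-fold among the 3 tumors labelled Cd276KO, Cd55 11.8-fold and C4b 10.6-fold, while C1s1 varied 7.52-fold and C4b 8.75-fold among the 3 control tumors. In ID8 cultures the same measure was 1.06 to 1.17 for C1s1, C1ra, C3 and Cd55.

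Single tumors stood at the ends of these ranges. Tumor 1 labelled Cd276KO was lowest of all 6 in C2, C3, Cfb, Serping1 and Cd55. Control tumor 1 was highest in C1s1, C1ra, C2 and Serping1, and control tumor 3 was lowest in C1s1, C1ra and C4b. Tumor 2 labelled Cd276KO was highest in C4b, C3, Cfb and Cd55.

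Leaving out 1 tumor moved these values strongly. Without control tumor 1, the log2 fold change was 0.01 for C1s1, 0.46 for C1ra and 0.17 for Serping1, each of opposite sign to the full comparison, and it was 3.14 for C4b and 2.36 for Cd55. Without control tumor 3, it was -0.96 for C1s1 (edgeR adjusted p = 0.0773) and -0.78 for C1ra. Without tumor 1 labelled Cd276KO it was 1.18 for C3 and 1.99 for C4b. In none of these was a member called.

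Marker genes of host cells also varied between the tumors, and their part in the members' values was not tested. The sum of 8 macrophage markers was 349, 743 and 596 CPM in tumors labelled Cd276KO and 1430, 1087 and 816 CPM in control tumors, so all 3 control tumors were higher. The sum of 8 fibroblast markers was 3577, 6341 and 5219 CPM in tumors labelled Cd276KO and 17804, 5819 and 477 CPM in control tumors, with control tumor 3 lowest and control tumor 1 highest, as for C1s1 and C1ra.

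The sum of 6 striated muscle markers was 90.4, 708 and 669 CPM in tumors labelled Cd276KO and 123, 1.64 and 2.14 CPM in control tumors, and that of 5 adipocyte markers was 4.51, 21.7 and 34.8 CPM in tumors labelled Cd276KO and 16.2, 4.41 and 3.86 CPM in control tumors. Tumors 2 and 3 labelled Cd276KO, which had the most muscle RNA, also had the most C4b and C3. The sum of 5 skin markers was 208 CPM in control tumor 3 and 6.94 to 7.49 CPM in the other 5 tumors. No listed marker of these cell types was at 0 in the tumors, except the adipocyte gene Lep in control tumors.

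**Figure D4:**
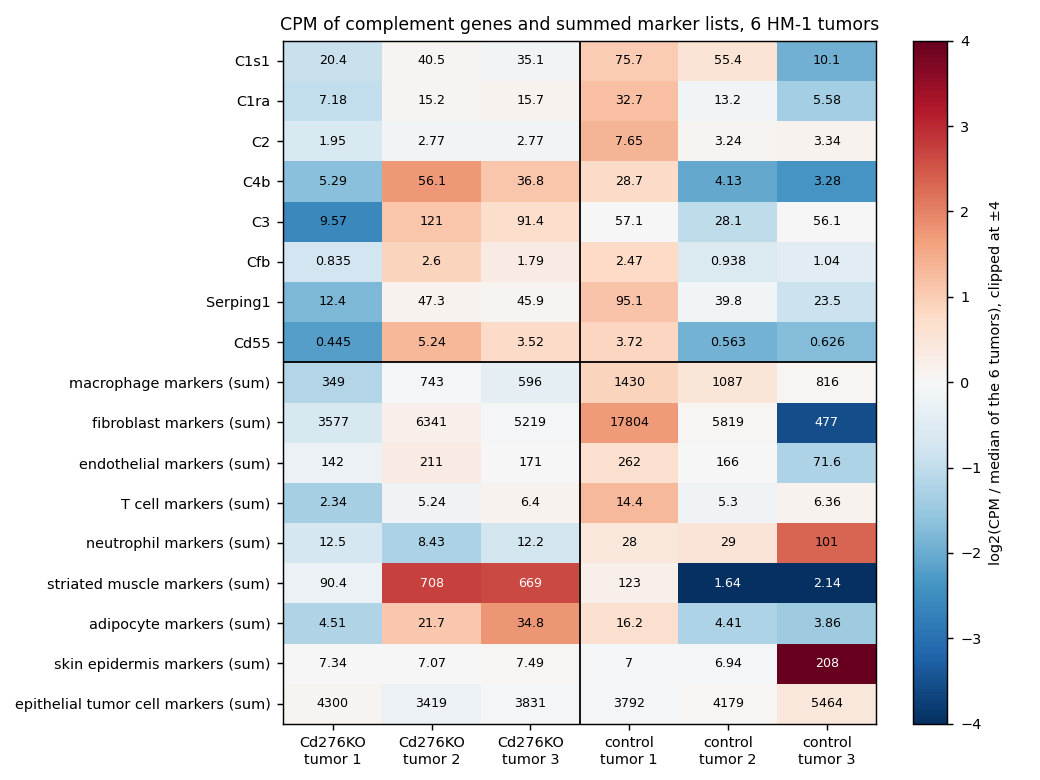
CPM of the 8 genes and of 9 summed marker lists in the 6 HM-1 tumors, with color for the log2 ratio to the median of the 6. Control tumor 1 is high and control tumor 3 low in C1s1, C1ra and fibroblast markers, and tumors 2 and 3 labelled Cd276KO are high in C4b, C3 and striated muscle markers.

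Of 30 other complement genes tested between the tumor groups, 3 were lower in tumors labelled Cd276KO, 27 were not called, and the median log2 fold change was -0.49 against -0.03 over all genes tested. Itgam, which encodes the alpha chain of complement receptor 3 on myeloid cells, averaged 8.83 ± 2.63 CPM in tumors labelled Cd276KO and 34.0 ± 13.4 CPM in control tumors (SD, n = 3 each; log2 fold change -1.93, SE 0.37, edgeR adjusted p = 0.0385). Fcna averaged 17.3 ± 4.76 CPM in tumors labelled Cd276KO and 63.7 ± 17.997 CPM in control tumors (log2 fold change -1.85, SE 0.29, edgeR adjusted p = 0.0272). C5ar1, the main receptor for the C5a fragment, averaged 10.7 ± 3.11 CPM in tumors labelled Cd276KO and 28.9 ± 5.51 CPM in control tumors (log2 fold change -1.40, SE 0.25, edgeR adjusted p = 0.0340). Macrophage marker sums were lower in the same tumors, as given above. The sum of 5 neutrophil markers was 12.5, 8.43 and 12.2 CPM in tumors labelled Cd276KO and 28.0, 29.0 and 101 CPM in control tumors. Among the single markers of these lists only Cd68 and Csf3r were called, both lower. The part of either cell type in Itgam, Fcna and C5ar1 was not tested. The number of calls was 0 when any 1 tumor labelled Cd276KO was left out, 1 without control tumor 1 or 2, and 6 without control tumor 3.

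The effect of the label in tumors minus its effect in cultures was tested over the 12 HM-1 libraries. It was called for 0 of 8 members by edgeR and by DESeq2, with 0 at an unadjusted p under 0.05, against 2.84% of 15623 genes tested, 1.72% above 0 and 1.12% below 0. For C1s1 the difference was 1.55 (SE 1.05), for C1ra 0.90 (SE 0.74) and for C3 1.87 (SE 1.31). The comparisons of tumors with cultures and of the labels share libraries, so their values are set side by side and were not correlated.

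The genes whose levels followed each member most closely over the 18 libraries were taken among 10228 protein-coding genes, by Pearson's r of log2(CPM + 1), as a description of 6 groups and not of independent samples. C1s1 was most like Timp3 (0.991), an inhibitor of metalloproteinases, and C3 was most like Plxdc2 (0.980). C1ra was most like Oat (0.967) and C2 most like Prex1 (0.949). C4b was most like Ccr2 (0.986), a chemokine receptor of monocytes, and Serping1 most like Ccl8 (0.997), a chemokine. Cfb was most like the collagen gene Col14a1 (0.915) and then C4b (0.914), and Cd55 was most like Pkia (0.994), an inhibitor of protein kinase A.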

How the data were processed

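RNA sequencing read counts per gene were analysed for 18 libraries. The authors deposited whole-number counts, not normalized, and per the submitters' processing notes used Trim Galore, STAR and HTSeq on GRCm38; no source used here gives versions, annotation, strand setting or counting mode. Symbols, exon lengths and coordinates came from GENCODE M21, where 54723 of 54752 identifiers matched. Groups came from sample titles. CPM is counts per 1000000 of a library's total, as mean ± SD over n = 3.

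Differences were tested with edgeR 4.0.16 in R 4.3.3: robust quasi-likelihood fits on the 6 libraries compared (12 for a difference between effects), trimmed mean of M values scaling, filterByExpr, and Benjamini-Hochberg adjustment over all genes tested, with calls at an adjusted p under 0.05. The SE is the absolute log2 fold change divided by the square root of F. The script was tested on simulated data. Where a group had 3 or fewer reads, a ratio with a 95% exact interval or a bound from 3 counts is given; both cover counting error only.

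The 8 members, the 47 other complement genes and the marker lists were chosen with earlier results of these data known. Besides members and Cd276, up to 4 other complement genes per comparison were named, those called with the largest fold changes at a mean of at least 1 CPM, and for likeness the 2 closest genes at a mean of at least 5 CPM. Some genes that this rule names are not reported here, though the counts over lists hold every tested gene. Alternatives were DESeq2 1.42.0, other size factors, no filter, 1 fit over 18 libraries, the replicate number as a block, and each library left out.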

Additional observations from a re-analysis of the deposited data

Results flagged for a closer look

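The knockout effect differed between the lines by the interaction test for Cd276 and for 8 of 21 complement genes tested, 2 above 0 and 6 below 0, against 40.4% of all 14208 genes, so the count is near the share over all genes. All values are the log2 fold change in ID8 cells minus that in HM-1 cells, from edgeR over 12 libraries. Cd276 differed by 0.80 (SE 0.12, adjusted p = 0.000232), since its RNA was lower in HM-1 cells labelled Cd276KO and not called in ID8 cells. C1ra differed by 0.65 (SE 0.18, adjusted p = 0.0113) and Clu by 0.58 (SE 0.12, adjusted p = 0.0018), both lower in each line with the wider fall in HM-1 cells. The sign was opposite in the 2 lines for Itgb2, which differed by -2.60 (SE 0.19, adjusted p = 3.49e-07). Masp1 differed by -3.81 (SE 0.28, adjusted p = 4.15e-07), Cfp by -1.59 (SE 0.33, adjusted p = 0.0021), C8g by -1.50 (SE 0.46, adjusted p = 0.0203) and C1rl by -0.95 (SE 0.26, adjusted p = 0.012), each called lower in ID8 cells and not called in HM-1 cells. Cd59a differed by -7.12 (SE 2.05, adjusted p = 0.0169), with 2 reads over the HM-1 libraries labelled Cd276KO and 0 over HM-1 controls, so this fitted size depends on the prior count. The call was lost with 1 library left out for C8g (adjusted p up to 0.0582, without ID8 control library 2), C1rl (0.0640, without HM-1 library 3 labelled Cd276KO) and Cd59a (up to 0.0733, without HM-1 library 2 labelled Cd276KO). One fit over all 18 libraries lost the calls of C1ra (adjusted p = 0.465), Clu (0.324), C1rl (0.0567) and Cd59a (0.0660). These genes were named because the test singled them out.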

How the results depend on the processing

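For single genes, 1339 of 1425 values under the alternatives kept direction and side of the threshold. Leaving out 1 library turned the sign of uncalled values only. These ranges were, for HM-1 cells, -0.29 to 0.61 for C2, and for ID8 cells -0.095 to 0.0077 for Cd276. For the tumor labels they were -0.96 to 0.0072 for C1s1, -0.78 to 0.46 for C1ra, -0.87 to 0.17 for Serping1 and -0.13 to 0.82 for Cfb. For ID8 minus HM-1 effects they were -0.44 to 0.48 for C2 and -0.75 to 0.10 for C1s1, and for tumor minus culture effects -0.78 to 0.27 for Cfb and -0.92 to 2.98 for Serping1. Genes called with 1 library left out numbered 1725 to 7491 in HM-1 cells (7491 without control library 1), 0 to 1685 between tumors (1685 without control tumor 3), 4336 to 7072 between control tumors and cultures and 225 to 913 for tumor minus culture effects; other complement genes called numbered 3 to 7 in HM-1 cells, 0 to 6 between tumors, 17 to 23 between control tumors and cultures and 0 to 3 for tumor minus culture effects. Members called were 2 to 3 in HM-1 cells, 5 to 8 between tumors and cultures labelled Cd276KO, and 4 to 8 other complement genes were called for ID8 minus HM-1 effects. One fit over all 18 libraries called 0 members in HM-1 cells, 0 for ID8 minus HM-1 effects, 4260 genes in ID8 cells, 4001 genes and 10 other complement genes between tumors, 9974 genes between control tumors and cultures and 848 genes for tumor minus culture effects. DESeq2 called 2270 genes and 7 other complement genes between tumors, and 885 genes and 1 other complement gene for tumor minus culture effects, and the unfiltered counts also gave 1 other complement gene for the tumor minus culture effects. The cause was not tested. No source states a pairing by replicate number, and the main fits used none. Same-numbered deviations correlated at 0.182, 0.068 and 0.167 in ID8 cells. For the labels they correlated at 0.0263, -0.0318 and -0.00649 in HM-1 cells and at -0.669, -0.00129 and -0.103 in HM-1 tumors. Between control tumors and control cultures the values were -0.202, 0.338 and -0.298, and for the groups labelled Cd276KO -0.0423, -0.00606 and -0.0392. With the number as a block, 0 genes and 0 other complement genes were called between tumors, and 2 members were called in HM-1 cells and 4 in ID8 cells. Depth limits the members with few reads in cultures of both lines, C2, C4b, Cfb and Serping1, and the counts of C2 and Cfb may also be understated because of shared exonic bases. In HM-1 cultures it also limits Cd55, with 0 reads over controls and 3 over libraries labelled Cd276KO. C1s1 and C3 are limited there too, with 17 and 22 reads over HM-1 cultures labelled Cd276KO.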

Other observations

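Cfd encodes factor D, the protease that cuts factor B and a product of fat cells. It averaged 14.6 ± 13.9 CPM in HM-1 tumors labelled Cd276KO and 0.571 ± 0.573 CPM in control tumors (SD, n = 3 each), and the log2 fold change of 4.67 (SE 1.499) was not called by edgeR (adjusted p = 0.117). Its levels ran from 0.612 to 28.4 CPM among the 3 tumors labelled Cd276KO, and the summed adipocyte markers ran from 4.51 to 34.8 CPM in the same 3 tumors; their part in Cfd was not tested. Masp1 averaged 110 ± 7.07 CPM in tumors labelled Cd276KO and 30.6 ± 23.6 CPM in control tumors, a log2 fold change of 1.91 that was not called (SE 0.64, edgeR adjusted p = 0.128). Both genes were chosen after their values were seen.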
